A study of Mus musculus with 2 samples.

Results

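Mature neutrophils were identified among the cells that passed a flow cytometric gate meant to leave blood cells out. A cell was selected on its measured transcripts, and 62 of the 1766 cells that passed quality limits met the rule. S100a8 and S100a9 together had to hold at least 300 of 10000 unique molecular identifiers (UMIs, which count captured mRNA molecules). Ngp, Camp and Ltf together had to hold under 50 and Mpo, Elane and Prtn3 together under 20. Cells were kept when they showed 200 to 6000 genes and at most 10% of UMIs from mitochondrial genes. The vehicle library held 10 members and the teriparatide library 52.

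The cells came from the metaphyseal cancellous bone of the femur of male and female Gli1-CreERT2;Ai9 mice. In these mice tamoxifen activates a Cre recombinase expressed from Gli1 and switches on the red protein tdTomato. All mice were 1 month old and received tamoxifen once daily for 3 days, followed by 3 daily injections of vehicle or of teriparatide, an active fragment of parathyroid hormone, at 400 ng per g. Cells positive for tdTomato and negative for CD31, CD45 and Ter119 were sorted and sequenced on the 10x Genomics platform with 1 library per condition. The study's methods describe several mice of both sexes per group and a matrix for each mouse, but the files analysed here hold 1 matrix per condition with no map from cells to mice, so no mouse could serve as a replicate. No test between conditions was therefore possible, and library, sort, mice and treatment cannot be told apart. All 95% intervals given here (exact Poisson for levels, exact Clopper-Pearson for shares, conditional binomial for ratios, Newcombe for differences of shares) cover counting error only.

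Neutrophils arise in the marrow from granulocyte progenitors and fill their granules in a fixed order while they mature. Azurophil granule proteins such as myeloperoxidase are made first in promyelocytes, specific granule proteins such as lactoferrin in myelocytes and metamyelocytes, and gelatinase granule proteins in band and segmented cells. Division ends before the last stages, and mature cells gain receptors for chemoattractants and can produce cytokines on stimulation. In the account below a cell with high S100a8 and S100a9 but 50 or more per 10000 UMIs from Ngp, Camp and Ltf is called a granule-high neutrophil. There were 19 such cells among the vehicle cells and 183 among the teriparatide cells.

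The members held 41547 UMIs in the vehicle library, with a median of 4028.5 per cell and 1041.5 detected genes. In the teriparatide library they held 351146 UMIs, with a median of 5754 per cell and 1289 genes. They were shallower than granule-high neutrophils, whose medians were 9969 and 13306 UMIs, and than all kept cells, with medians of 10875 and 14556. The libraries as a whole held 1286 barcodes with 10567335 UMIs and 2142 barcodes with 26270041 UMIs. Of the barcodes, 2 occurred in both libraries and none of them was a member.

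The values on either side of each limit were as follows. The lowest sum of S100a8 and S100a9 among members was 714 per 10000 in vehicle and 455 in teriparatide members, and the highest among cells that failed this limit alone was 110 and 204. For Ngp, Camp and Ltf, the highest sum inside was 28.6 and 46.2 and the lowest outside 102 and 55.0. No vehicle member held a UMI of Mpo, Elane or Prtn3, and the highest sum in teriparatide members was 2.40 per 10000. These limits chose the cells, so the levels of the 8 genes are given as a description.

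**Figure D1:**
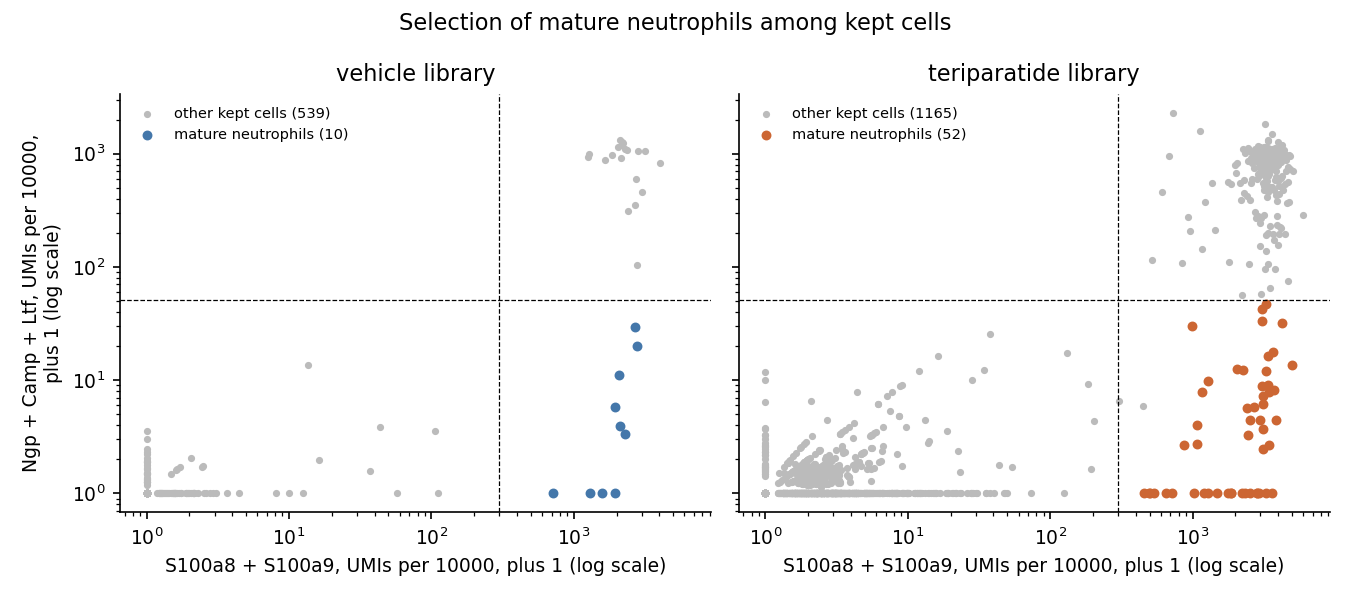
Each point is a kept cell, with the UMIs of S100a8 and S100a9 per 10000 on the x axis and those of Ngp, Camp and Ltf on the y axis (1 added to each, log scales). Dashed lines mark the limits of 300 and 50. The 10 vehicle and 52 teriparatide members fill the lower right corner, and 2 grey teriparatide cells there held too many Mpo, Elane and Prtn3 UMIs.

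S100a8 and S100a9, the subunits of the calcium-binding protein calprotectin, were the most abundant transcripts, with 20.3% of member UMIs in vehicle and 22.4% in teriparatide members. S100a8 (ENSMUSG00000056054, GRCm38 chromosome 3 from 90668978–90670035) stood at 77503 CPM (UMIs scaled to a total of 1000000 over all members; 74848–80227) in vehicle and 111597 CPM (110495–112708) in teriparatide members. S100a9 (ENSMUSG00000056071, chromosome 3 from 90692632–90695721) stood at 125665 CPM (122279–129121) and 112457 CPM (111351–113572). S100a9 thus exceeded S100a8 in the vehicle library, while both were level in teriparatide members. Ngp (ENSMUSG00000032484, chromosome 9 from 110419747–110423012), a granule protein of immature neutrophils, was at 602 and 775 CPM.

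Members made up 1.82% of kept vehicle cells (10 of 549, 0.877–3.32) and 4.27% of kept teriparatide cells (52 of 1217, 3.21–5.57). The difference was 2.45 percentage points (0.650–3.98). Without cells with at least 1% of UMIs from hemoglobin or stromal genes the shares were 8.06% and 9.92%, with a difference of 1.86 points (-4.70 to 6.49). Granule-high neutrophils took 3.46% and 15.0%, Ccr2-positive monocyte-lineage cells 2.73% and 9.86%, and erythroid cells 6.01% and 12.2%, so that all these blood cell classes had higher shares after teriparatide. Stromal cells took 73.2% and 46.1%. Among mature and granule-high neutrophils alone, members were 34.5% of the vehicle cells (10 of 29, 17.9–54.3) and 22.1% of the teriparatide cells (52 of 235, 17.0–28.0). That difference of -12.4 points had an interval from -31.2 to 3.28. Among members with sex-linked UMIs of 1 sex, 3 of 4 vehicle and 22 of 26 teriparatide cells carried Y-linked transcripts without Xist. Among all kept cells with such UMIs the male share was 52.6% in vehicle and 82.1% in teriparatide cells, so that sex and condition cannot be told apart in pooled values. Among male cells the member share was 1.41% and 3.05%, with a difference of 1.64 points (-1.20 to 3.42). Among female cells it was 0.521% and 2.55%, from 1 and 4 members.

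Ptprc (ENSMUSG00000026395, chromosome 1 from 138062861–138175708), which encodes the CD45 antigen that the sort excluded, was detected in 10 of 10 vehicle and 47 of 52 teriparatide members. Its level was 1035 CPM (749–1394) and 880.0 CPM (785–984). None of the 402 and 561 stromal cells held a Ptprc UMI, because its absence was part of the definition of that class, and 0 of 33 and 2 of 149 erythroid cells did. Gli1 and Ptch1, a Hedgehog target and receptor, had no UMI in any member, which allows at most 72.2 CPM in vehicle and 8.54 CPM in teriparatide members at 3 counts. Pth1r, the receptor of teriparatide, had 0 and 1 UMI. Igf1r, the IGF-I receptor, stood at 289 CPM (149–505) and 188 CPM (145–239). The endothelial gene Pecam1, which encodes CD31, was at 24.1 and 22.8 CPM, from 1 and 8 UMIs.

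The given markers of the class other than the rule genes were Il1b, Cxcl2 and Clec4d. Il1b (ENSMUSG00000027398, chromosome 2 from 129364570–129371139) encodes the cytokine interleukin-1β and was detected in 9 of 10 vehicle and 44 of 52 teriparatide members. Cxcl2 (ENSMUSG00000058427, chromosome 5 from 90903871–90905938), a chemokine that attracts neutrophils through Cxcr2, was detected in 9 of 10 and 36 of 52. Clec4d (ENSMUSG00000030144, chromosome 6 from 123262111–123275265), a C-type lectin receptor, was detected in 10 of 10 and 48 of 52. The share of stromal cells with a UMI was 0% in the vehicle library for each of the 3 genes (0 of 402). In the teriparatide library it was 2.32% for Il1b and for Cxcl2 and 0.357% for Clec4d, at median depths of 13052.5 and 23092 UMIs. In the 10 vehicle and 46 teriparatide members with at least 2700 UMIs, each thinned to that number and 6 shallower teriparatide members left out, Il1b was found in 90.0% and 87.0%, Cxcl2 in 90.0% and 69.6%, and Clec4d in 100% and 89.1%. All 3 markers were thus detected in most members of both libraries.

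Il1b and Cxcl2 varied together from cell to cell, and both are classical targets of the transcription factor NF-kB in myeloid cells. The sequences before their start sites are shown because these 2 genes were the most abundant cytokine transcripts. Both are RefSeq promoters on GRCm38.p6, written 5′ to 3′ on the strand of the gene, from 170 to 51 bases before the RefSeq start, with matches to an NF-kB motif (the letters GGG and TTTCC with any 2 bases between them, either strand) in capitals.
Cxcl2 (chr5:90903729-90903848, plus strand): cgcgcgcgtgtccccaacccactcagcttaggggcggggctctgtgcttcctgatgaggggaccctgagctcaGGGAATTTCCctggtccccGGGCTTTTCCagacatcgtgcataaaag
Il1b (chr2:129371190-129371309, minus strand): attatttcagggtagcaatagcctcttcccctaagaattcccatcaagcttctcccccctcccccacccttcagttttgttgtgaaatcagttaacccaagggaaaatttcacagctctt
Over the 250 bases before the start, Cxcl2 had 2 matches, from 97 to 88 and from 78 to 69 bases before it, and Il1b had none. Of 32851 mouse promoters of the same length, 1.41% held at least 1 match. The C/EBP motif TTGCNNAA, found in 9.56% of the promoters, occurred in neither gene over these 250 bases. Each motif was searched only as the letters given, so other forms of either motif were not looked for. A match is a description of letters and not a site of binding.

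Cxcl2 stood at 12636 CPM (11578–13765) in vehicle members and 5980.4 CPM (5727–6242) in teriparatide members. Per cell it ranged from 0 through a median of 92.2 to 515 UMIs per 10000 in vehicle and from 0 through 8.81 to 510.1 in teriparatide members. Il1b stood at 12227 CPM (11187–13338) and 6154 CPM (5897–6419). Its per-cell values ran from 0 through 119 to 429.7 and from 0 through 53.5 to 312 per 10000. The ranges of both genes overlapped between the libraries, though for Il1b the vehicle range reached higher, to 429.7 against 312. The 5 of 10 vehicle and 11 of 52 teriparatide members over 100 per 10000 held 76.2% and 70.6% of the Cxcl2 UMIs. Across cells, Spearman's rho of Il1b with Cxcl2, both per UMI of the cell, was 0.78 over 10 vehicle and 0.73 over 52 teriparatide members. Retnlg had a rho of -0.66 and -0.40 with Il1b and of 0.59 and 0.51 with Mmp8. These values share each cell's depth and total, and are given as a description.

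**Figure D2:**
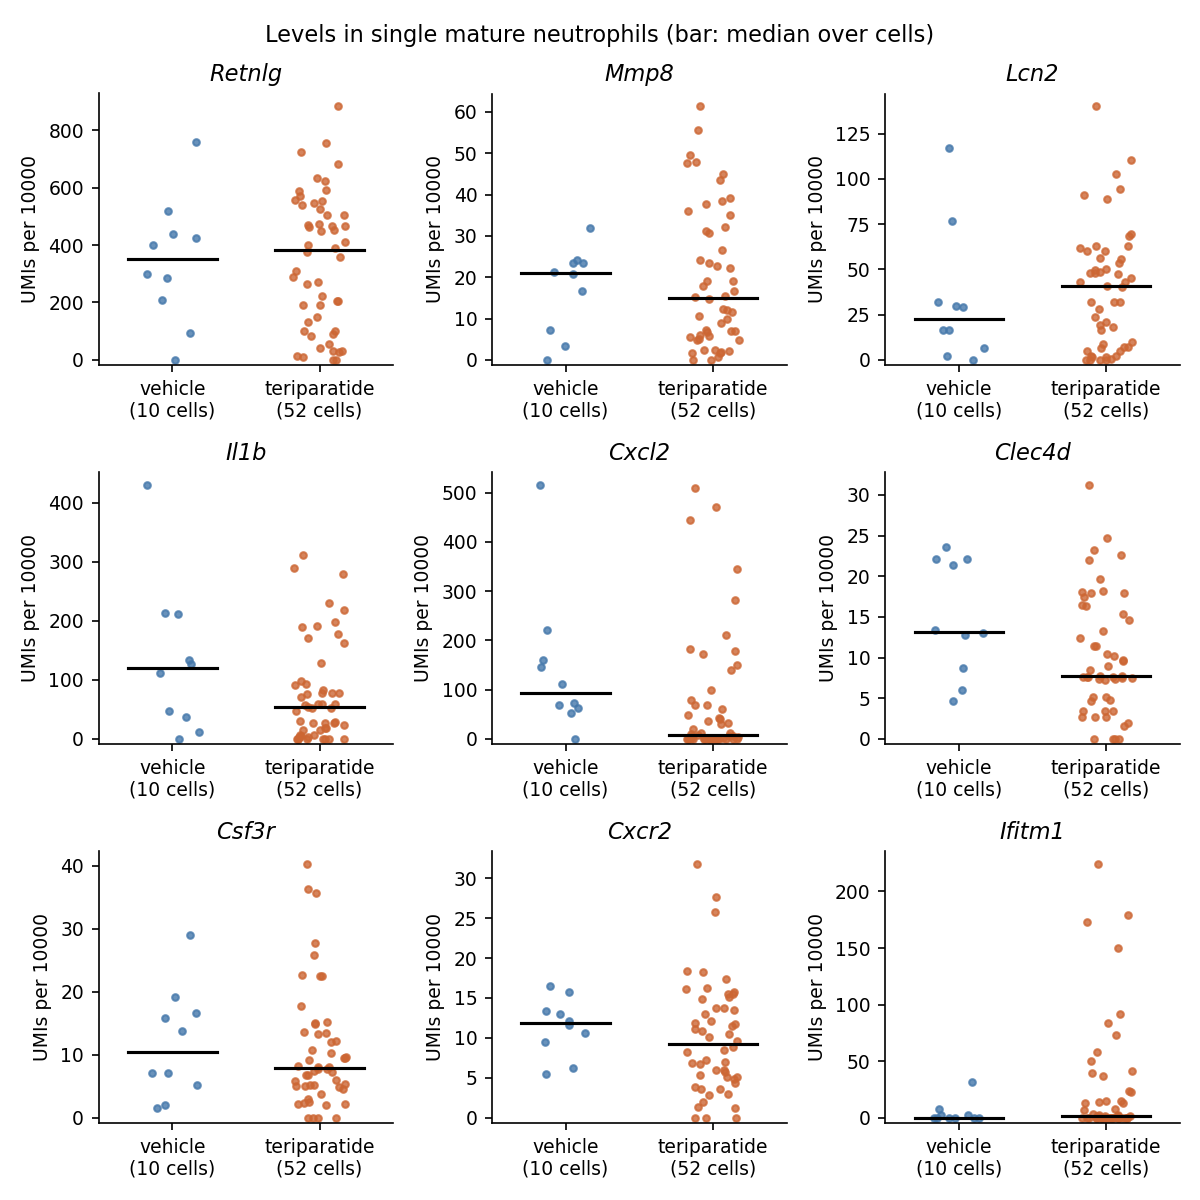
Each point is a member cell and gives UMIs per 10000 of the named gene, with vehicle on the left, teriparatide on the right and a bar at the median over cells. The ranges of the libraries overlap for every gene shown, and the Cxcl2 median is 92.2 in vehicle and 8.81 in teriparatide members.

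Azurophil genes were close to absent: Mpo, Ctsg and Ms4a3 had no UMI, Elane had 1 and Prtn3 had 3, all in teriparatide members. Among specific granule genes outside the rule, Lcn2, which encodes the iron-siderophore-binding lipocalin 2, was at 3442 CPM (2901–4054) in vehicle and 4049.6 CPM (3842–4266) in teriparatide members. In granule-high neutrophils Lcn2 was at 23495 and 17833 CPM. Chil3, a chitinase-like protein, was at 96.3 and 1219 CPM against 9978 and 10107 CPM, and 1 teriparatide member held 80.1% of its member UMIs there. Of 9 gelatinase and secretory granule genes 4 were called at least 2-fold higher than in granule-high cells and 1 lower, against 16.1% of all genes called higher. On UMIs outside the rule genes 2 were higher and 1 lower, against 463 and 1157 of all 4792 genes. Retnlg (ENSMUSG00000022651, chromosome 16 from 48872621–48874496), a resistin-like protein of late neutrophils, was the third most abundant transcript at 36874 CPM (35050.4–38768) and 33940.3 CPM (33334–34555), against 8089 and 8418 CPM in granule-high cells. Mmp8, the neutrophil collagenase, was at 1829 and 2076 CPM against 1256 and 1279, and Mmp9, gelatinase B, at 1613 and 1623 CPM against 1114 and 1108. Neither reached the 2-fold limit, with pooled log2 ratios of 0.68 and 0.55, and of 0.08 and 0.12 in cells thinned to 2700 UMIs.

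The comparison of members with granule-high neutrophils is a description as well, because the rule splits these cells. A gene was called when its pooled level over both libraries differed at least 2-fold and its interval did not cover equal levels. Of 4792 genes with at least 50 UMIs, 773 were higher in the members (16.1%) and 726 lower (15.2%), or 31.3% in either direction. The rule genes take a large share of UMIs in granule-high cells, and when levels were scaled to the UMIs outside the 8 rule genes the calls were 463 higher and 1157 lower, with the median log2 ratio at -0.37 in place of 0.02. With the mean of single cells they were 729 and 1076, but no interval was formed there and 2-fold alone made a call. Of 15 cell cycle genes, Birc5, Ccnb1, Ccnb2, Cdk1, Mcm6, Rrm2 and Tyms had no UMI in any member and passed the limit of 50 UMIs through the granule-high cells alone, so that they could only be called lower. The other 8 were called lower, with log2 ratios from -5.12 to -1.34, but of these Hmgb2 alone held 50 or more UMIs in the members and the rest passed the limit through the granule-high cells as well. At a floor of 3 counts over both libraries, Birc5, which encodes survivin, was at least 17.6-fold lower and Cdk1, the mitotic kinase, at least 12.7-fold lower. The chromatin protein gene Hmgb2 was the most abundant of the list, at 1324 and 1349.9 CPM against 4684 and 3676 CPM. Of 9 specific granule genes with enough UMIs 8 were lower, but Ngp, Camp and Ltf had to be lower by the rule. Of the 6 others 5 were lower, with log2 ratios of the 6 from -7.03 (Fcnb, 1 member UMI) to -0.56 (Cyba). Fcnb and Ceacam1 passed the limit of 50 UMIs through the granule-high cells. The 3 azurophil genes that passed it hold no free call, since Elane and Prtn3 belong to the rule and Ms4a3 had no member UMI.

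**Figure D3:**
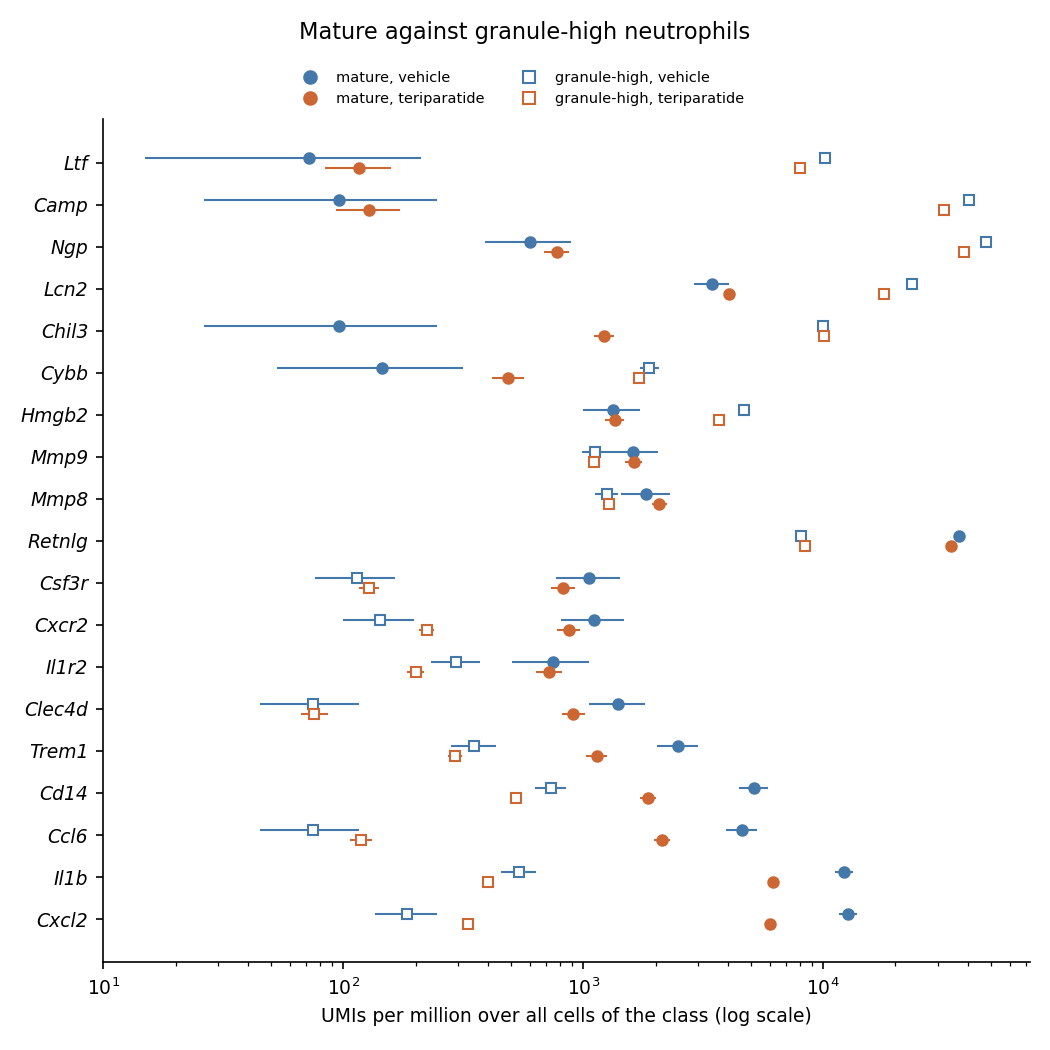
Levels in CPM (log scale) with exact Poisson 95% intervals, for 19 genes in members (filled circles) and granule-high neutrophils (open squares) of both libraries. Ngp, Camp and Ltf belong to the selection rule. Lcn2, Chil3, Cybb and Hmgb2 lie lower in members, and Retnlg, Csf3r, Cxcr2, Clec4d, Ccl6, Il1b and Cxcl2 higher, in both libraries.

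Most receptor genes on the lists, though not all, were called higher in the members than in granule-high cells, against 16.1% of all genes. Of 9 chemoattractant and chemokine receptor genes 7 were called higher and 1 lower, with a median log2 ratio of 1.87. Cxcr2, the receptor of Cxcl2 that favours release from marrow, was at 1107 CPM (811–1477) in vehicle and 869 CPM (774–972) in teriparatide members, against 142 and 222 CPM. Ccrl2, a chemerin-binding receptor, had the highest ratio of the list, 4.20 (3.90–4.49), with 1805 and 644 CPM against 47.2 and 41.4 CPM. Ccr1 was at 1059 and 678 CPM against 149.6 and 126, and C5ar1, the receptor of complement C5a, at 1420.1 and 672 CPM against 366 and 283. Of 10 growth factor and cytokine receptor genes 8 were called higher and 0 lower. Csf3r, the G-CSF receptor, stood at 1059 and 826 CPM against 114 and 128. Il1r2, the decoy receptor of interleukin-1, was at 746 and 720.5 CPM, with a pooled log2 ratio of 1.80.

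Among 14 pattern and Fc receptor genes 11 were called higher and 0 lower, against 16.1% and 15.2% of all genes. They were 8 and 1 on UMIs outside the rule genes, and 9 and 0 with the mean of single cells. Over all 4792 genes these scalings gave 463 higher and 1157 lower, and 729 and 1076. Clec4d, a given marker of the class, was at 1396 CPM (1060.0–1805) and 908 CPM (811–1014) against 74.8 and 75.8 CPM. Cd14, a coreceptor for lipopolysaccharide, was at 5127 and 1859.6 CPM against 732 and 524, and Trem1, an activating receptor, at 2479 and 1136 CPM against 350.3 and 293. Tyrobp, which encodes the adaptor DAP12, was at 5656 and 4431 CPM against 2161 and 1926. Fcer1g, a signalling chain of Fc receptors, was at 1781 and 1843 CPM against 1417 and 1535, and its pooled log2 ratio of 0.27 turned to -0.13 when the rule genes were left out of the total. Among 9 adhesion genes 4 were called higher and 1 lower, but 2 higher and 2 lower both on UMIs outside the rule genes and with the mean of single cells. Selplg, which encodes the selectin ligand PSGL-1, stood at 554 and 627 CPM against 82.7 and 133. Ly6g, a neutrophil surface antigen, was at 457 and 489.8 CPM, below 689 and 829.7 CPM in granule-high cells.

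Among the lists of neutrophil functions cytokines had the highest median, with 9 of 10 genes called higher, 0 lower and a median log2 ratio of 3.60. The list holds Il1b and Cxcl2, which are given markers of the class, so their calls are a description. Ccl3 passed the limit on UMIs through its 94 UMIs in the members, and stood at 9.65 CPM in granule-high cells over both libraries. Calls over all genes were 16.1% higher and 15.2% lower. The pooled ratio was 4.05 (3.96–4.15) for Il1b and 4.38 (4.28–4.49) for Cxcl2, which stood at 539 and 399 CPM and at 185 and 331 CPM in granule-high cells. Ccl6, a chemokine of myeloid cells, was at 4573 and 2130.2 CPM against 74.8 and 119. Osm, the cytokine oncostatin M, was at 1155 and 624 CPM against 264 and 209. Feedback genes of NF-kB followed, with 12 of 13 higher and 0 lower. Nfkbia, which encodes the inhibitor IκBα, was at 3538 and 1976 CPM against 421 and 268, and Ier3 at 2864 and 675 CPM against 244 and 153. Ptgs2, the inducible cyclooxygenase, was at 915 and 575 CPM against 35.4 and 27.5, and was detected in 6 of 10 and 24 of 52 members.

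Of 11 granulocyte transcription factor genes 9 were higher and 1 was lower, against 16.1% and 15.2% of all genes. On UMIs outside the rule genes 7 of the 11 were higher and 1 lower. Of all 4792 genes 463 were higher and 1157 lower on that scaling, and 729 and 1076 with the mean of single cells. Cebpb, the C/EBP family member of late and activated granulocytes, was at 8954 and 4212 CPM against 1165 and 928, and Junb, an AP-1 component, at 4838 and 2811 CPM against 953 and 497. Cebpe, which is needed for specific granule formation and was named after its values were seen, was at 24.1 and 25.6 CPM against 398 and 361. Of 13 stress and dissociation genes, which include early response and heat shock genes, 8 were higher and 0 lower, but 5 were higher on UMIs outside the rule genes and 6 with the mean of single cells. Hspa1b had a log2 ratio of 1.01, and of -1.23 without the 6 teriparatide members with monocyte or hemoglobin RNA. Dusp1, a phosphatase of MAP kinases, was at 2624 and 2367 CPM against 201 and 193, and Fos at 1613 and 2124 CPM against 756 and 612. Survival genes were called higher in 5 of 8 cases and lower in 0, but in 3 and 1 on UMIs outside the rule genes. Mcl1, which encodes an antiapoptotic protein, was at 2985 and 2082 CPM against 882 and 609.8, and the kinase gene Pim1 at 1444 and 726 CPM against 161 and 104.

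Oxidase genes, which form the superoxide-producing complex of phagocytes, had 1 of 7 called higher and 2 lower. Over all genes 16.1% were called higher and 15.2% lower. Of the 7 oxidase ratios 6 were below 0, against 2357 of all 4792 genes, with a median log2 ratio of -0.55. On UMIs outside the rule genes 0 were higher and 2 lower, against 463 and 1157 of all 4792 genes. Cybb, the catalytic subunit, was at 144 and 487 CPM against 1885 and 1705. Of 10 stefin and protease inhibitor genes 7 were higher and 2 lower. Gm5483, a stefin-like gene, was at 4019.5 and 2196 CPM against 7.87 and 210.4. The stefin genes are near-identical copies, and counting may have split their reads, so single values are uncertain. Wfdc17, which encodes a whey acidic protein domain, had the highest ratio among genes with at least 50 UMIs outside hemoglobin, 5.29 (5.10–5.49), with 1155 and 3169.6 CPM against 19.7 and 79.9. In the vehicle library 75.0% of its UMIs came from 1 of 10 cells. Among 5 eicosanoid genes 1 was higher and 2 were lower, against 16.1% and 15.2% of all genes. Alox5ap, the partner of 5-lipoxygenase, was at 2094 and 2253 CPM against 1421 and 1495. Of 15 interferon response genes 9 were higher and 1 was lower, with Ifitm2 at 1805 and 2048 CPM against 346 and 530.2.

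The members also differed from Ccr2-positive monocyte-lineage cells, the class that shares many of these genes. Retnlg was at 0 and 5.29 CPM in those cells, Cxcr2 at 0 and 1.18 CPM and Mmp9 at 0 and 0.588 CPM. Il1b was at 1355 and 955 CPM there and Cxcl2 at 522 and 1017 CPM, below the members in each library. Fos was at 2526 and 2076 CPM there against 1613 and 2124 CPM in the members, so that its order differed between the libraries.

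Markers of other blood cells were examined in every member. B cell, basophil and eosinophil markers had no UMI, and dendritic, platelet and endothelial lists summed to at most 24.1 CPM in either library, with Pecam1 as the most abundant gene. Stromal markers summed to 96.3 CPM in vehicle and 251 CPM in teriparatide members, with Cxcl12, Lepr and Sox9 at 0 and Col1a1 the most abundant. The monocyte list summed to 818 and 1413 CPM with Ly6c2 highest, the erythroid list to 24.1 and 25890 CPM with Hbb-bs highest, the macrophage list to 0 and 68.3 CPM, and the T and NK cell list to 72.2 and 82.6 CPM. Of the last list Cd3e, Klrb1c and Nkg7 were at 0. Some teriparatide members stood apart. In 1 cell 62.2% of UMIs were hemoglobin transcripts, and it held 99.2% of the Hbb-bs UMIs of that library's members. In 5 cells the monocyte genes Ccr2, Csf1r, F13a1, Ms4a6c and Cx3cr1 summed to between 17 and 85 UMIs, against at most 3 in the other teriparatide members and at most 1 in vehicle members. Those 5 cells had 2576 to 4008 genes, and ribosomal protein genes took 837 to 2122.5 of 10000 UMIs, with a median of 1401. The median was 284 (range 131 to 1021) in the 46 teriparatide members outside both kinds, which overlaps the 5 cells. It was 193 (range 136 to 264) in the vehicle members. UMIs of both Xist and a Y-linked gene occurred in 4 teriparatide members, 3 of which were among these 6 cells. Whether such cells were doublets was not tested. Gene ratios between the libraries are therefore given with and without the 6 cells, a choice made after seeing the data. Without them the teriparatide share of members was 3.78% and the difference of the shares 1.96 points (0.192–3.44).

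Between the libraries, a gene was called by the same rule as above, with no replicate check. Of 931 genes with at least 50 UMIs in the members, 118 were higher in teriparatide members (12.7%) and 64 lower (6.87%), or 19.5% in either direction, with a median log2 ratio of -0.05. Without the 6 cells 675 genes had enough UMIs, of which 41 were higher (6.07%) and 43 lower (6.37%). These counts also depend on the UMI limit, which genes with few vehicle UMIs passed through the teriparatide members, 18 of them with none in the vehicle library. At 20 or more UMIs 135 were higher and 100 lower of 2036 genes, and at 100 or more 86 and 36 of 477. Of 74 ribosomal protein genes 59 were higher with them, at a median log2 ratio of 1.66, and 13 of 52 without them, at a median of 0.56. Rps19 had a ratio of 4.63 (2.14–9.95), which rested on 1 vehicle UMI, and 3.03 without the 6 cells. Hspa1b, a heat shock gene with a near-identical copy, had 3.88 and 1.64, Apoe 3.63 and 2.03, and Chil3 3.66 and 1.70, resting on 3, 2 and 4 vehicle UMIs. The 6 cells held 158 of the 209 Apoe UMIs and 315 of the 373 Hspa1b UMIs of the teriparatide members.

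Of 8 cytokine genes 3 were called lower in teriparatide members and 1 higher, with a median log2 ratio of -0.94. Over all genes 6.87% were called lower and 12.7% higher. With the mean of single cells 2 of the 8 were lower and 1 higher, against 62 and 153 of all 931 genes. Without the 6 cells 1 of 7 was lower and 1 higher, with a median of -0.84, against 6.37% of all genes called lower. Cxcl2 had a ratio of -1.08 (-1.22 to -0.94), and -0.90 without them. Ccl6 had -1.10 (-1.33 to -0.86) and -0.94, so that neither reached the 2-fold limit without the 6 cells. Il1rn, the interleukin-1 receptor antagonist, had -1.97 (-2.55 to -1.36), from 891 and 228 CPM, and -2.04. Il1b was just short of the 2-fold limit at -0.99 (-1.13 to -0.85) and at -0.77 without the 6 cells. Ccl3, which rested on 2 vehicle UMIs and for which 1 teriparatide cell held 54.3%, was the higher gene.

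Other genes with lower levels included receptors and feedback genes. Ier3 had the lowest ratio, -2.09 (-2.41 to -1.76), and -2.15 without the 6 cells, and 1 vehicle cell held 39.5% of its UMIs there. Cd14 had -1.46 (-1.69 to -1.23) and -1.34, Ccrl2 -1.49 (-1.87 to -1.09) and -1.52, and Trem1 -1.13 (-1.44 to -0.80) and -0.93. Cebpb had -1.09 (-1.25 to -0.92) and -0.98. Lower calls stood at 6.87% of all genes, and at 6.37% without the 6 cells. Of 10 NF-kB feedback genes 2 were called lower and 0 higher, and 9 had ratios below 0, against 485 of all 931 genes. Without the 6 cells 2 of 9 were lower. Of 12 pattern and Fc receptor genes 3 were lower and 0 higher, and 2 of 11 were lower without the 6 cells. Of 8 chemoattractant receptors 3 were lower and 0 higher, and 1 of 8 was lower without them. Slc7a11, the cystine transporter, was at 2118 and 661 CPM, with a ratio of -1.68 (-2.04 to -1.31), and -1.49 without the 6 cells. Gadd45a was at 2094 and 527 CPM (-1.99, -2.37 to -1.61) and Plaur, the urokinase receptor, at 2575 and 866 CPM (-1.57, -1.90 to -1.24), and without the 6 cells their ratios were -1.88 and -1.42. For these 8 genes the per-cell ranges overlapped between the libraries.

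Gelatinase granule genes and Lcn2 were not called between the libraries. Retnlg had a ratio of -0.12 (-0.20 to -0.04), which was 0.19 without the 6 cells and 0.01 with the mean of single cells. Mmp8 had 0.18 (-0.16 to 0.54), Mmp9 0.01 (-0.36 to 0.40) and Lcn2 0.23 (-0.01 to 0.49), and without the 6 cells they had 0.41, 0.31 and 0.45. Of 8 gelatinase and secretory granule genes 0 were called in either direction, against 19.5% of all genes, and 0 of 8 without the 6 cells. Csf3r, at -0.36 (-0.82 to 0.13), and Cxcr2, at -0.35 (-0.80 to 0.13), were not called, and neither was Clec4d, at -0.62 (-1.03 to -0.19). Without the 6 cells these were -0.12, -0.10 and -0.42. Of the 5 specific granule genes 2 were called higher, Chil3 and Cybb, against 12.7% of all genes. Cybb had 1.75 (0.60–3.22), and 0.58 without the 6 cells. Without them 1 of 5 was called higher, against 6.07% of all genes.

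Of 11 interferon response genes 2 were called higher and 2 lower, against 12.7% and 6.87% of all genes. Ifitm1, a membrane protein that restricts virus entry, was at 409 and 1643 CPM, with a ratio of 2.01 (1.31–2.80), and 2.41 without the 6 cells. Of its 17 vehicle UMIs 1 cell held 64.7%. Ifitm1 was detected in 4 of 10 vehicle and 29 of 52 teriparatide members. Ifitm6 had 1.07 (0.40–1.82) and 1.28. Isg15, a ubiquitin-like protein, was at 1083 and 353 CPM, with -1.62 (-2.12 to -1.09) and -1.69, and 1 vehicle cell held 48.9% of its UMIs there. Wfdc17 had 1.46 (1.04–1.90) and 1.83. Fos and Dusp1, early response genes, had 0.40 (0.04–0.78) and -0.15 (-0.44 to 0.15), and 0.58 and 0.01 without the 6 cells.

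**Figure D4:**
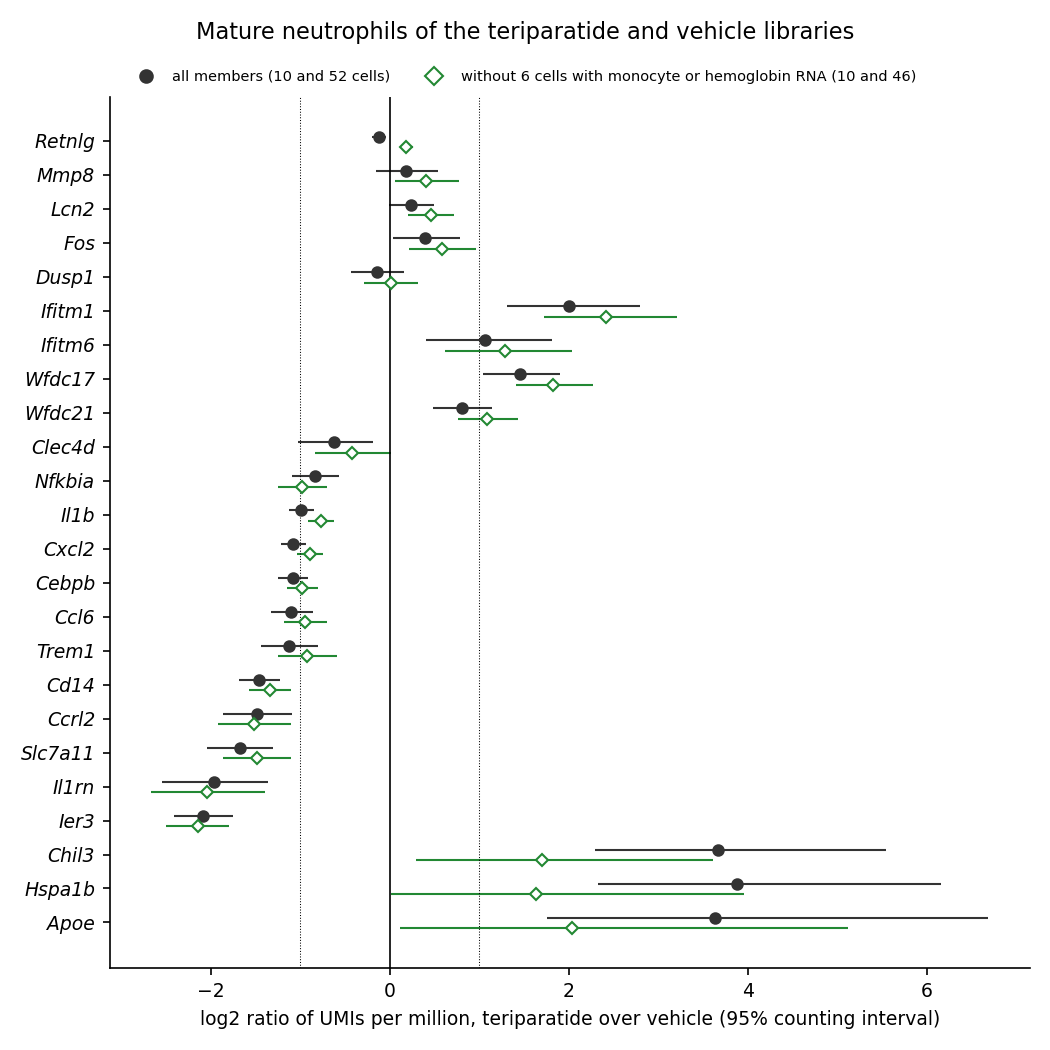
Log2 ratios of CPM, teriparatide over vehicle, with 95% counting intervals for 24 genes in all members (10 and 52 cells, circles) and without the 6 cells with monocyte or hemoglobin RNA (10 and 46 cells, diamonds). Dotted lines mark 2-fold. Ier3, Il1rn, Slc7a11, Ccrl2 and Cd14 lie below -1 in both sets, while Chil3, Hspa1b and Apoe move toward 0 without the 6 cells.

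The ratio of S100a8 to S100a9, which the rule did not use, differed between the libraries. Over all members it was 0.617 (0.590–0.645) in vehicle and 0.992 (0.979–1.01) in teriparatide members. In single cells it ran from 0.454 through a median of 0.636 to 0.837 in the vehicle, so that S100a8 was below S100a9 in 10 of 10 members. In the teriparatide library it ran from 0.434 through 0.976 to 2.79, with S100a8 above S100a9 in 23 of 52 members. The ranges overlapped at the lower end. Without the 6 cells the teriparatide ratio was 0.993. Granule-high neutrophils had 0.672 and 1.01, with S100a8 above in 0 of 19 and 80 of 183 cells. The few S100 transcripts of stromal cells, whose origin was not tested, had 0.586 (0.428 to 0.798, from 68 and 116 UMIs) and 0.987 (0.896 to 1.09, from 837 and 848 UMIs). Erythroid cells had 2 (0.104 to 118, from 2 and 1 UMIs) in vehicle and 0.927 (0.712 to 1.21) in teriparatide cells. The ratio therefore moved with the library in members, granule-high neutrophils and stromal cells, while erythroid cells held too few vehicle UMIs to tell. Treatment and library preparation cannot be told apart.

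**Figure D5:**
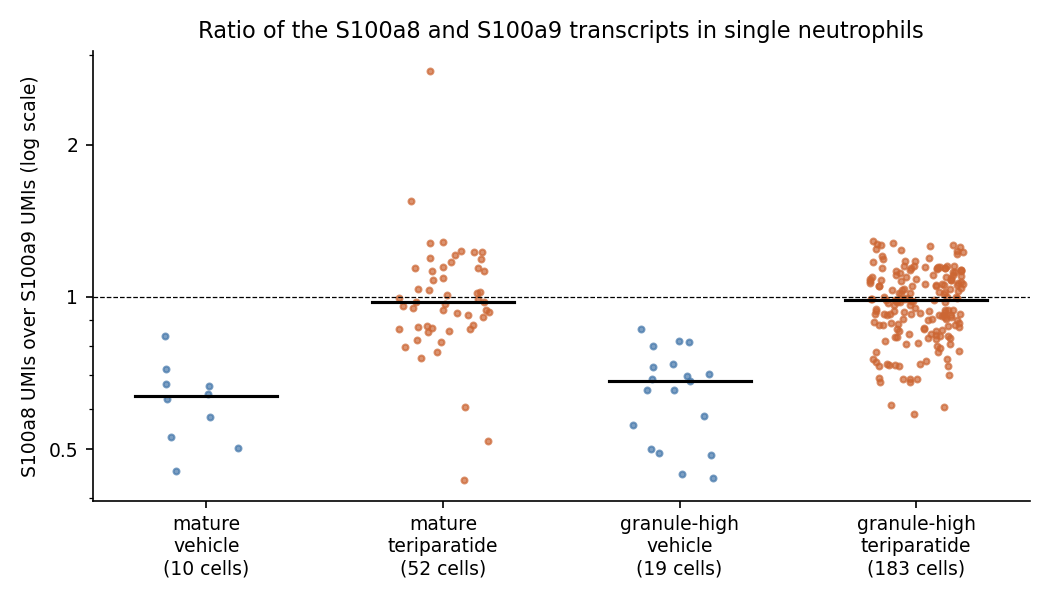
Each point is a neutrophil and gives its S100a8 UMIs over its S100a9 UMIs (log scale), for members and granule-high cells of both libraries, with a bar at the median over cells and a dashed line at 1. Medians are 0.636 and 0.976 in members, and all 10 vehicle members lie below 1.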

How the data were processed

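The values were deposited as whole-number counts of UMIs per gene and cell barcode in 1 matrix per library. Per the labels, the authors made these counts with Cell Ranger 2.1.0 on mm10, while the matrix headers state software version 3.1.0, a difference that was not resolved. No column of another series was present. Cells were kept and classed by the limits in the text. Granule-high neutrophils differed from the members in the Ngp, Camp and Ltf limit alone. Monocyte-lineage cells held a Ccr2 UMI, erythroid cells at least 1000 hemoglobin UMIs per 10000, and stromal cells at least 50 per 10000 from Col1a1, Col1a2, Col2a1, Cxcl12 and Sparc and no Ptprc. No doublet caller was run. Counts were summed per library and class in Python 3.11.15 (NumPy 2.4.6, SciPy 1.17.1, pandas 2.3.3). A gene was called at 2-fold or more with an interval that did not cover equal levels, among genes with at least 50 UMIs. With the mean of single cells no interval was formed, so 2-fold alone made a call. The members and gene lists were chosen with earlier results of these data known. Named genes were the rule genes and markers, the genes of the sort and of the study, the 4 most abundant genes of each list, the 20 most abundant overall and the 10 highest and 10 lowest ratios of each comparison, some of which are not reported here. Of the list genes 6 (Clec7a, Acod1, Cebpd, Ighm, Igkc and Trbc2) were not analysed here. Alternatives changed the limits, scaling, depth, sexes and possible mixed cells.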

Additional observations from a re-analysis of the deposited data

How the results depend on the processing

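No paired analysis was possible because each condition had 1 library, and no replicate could be left out. The share of mature neutrophils stayed higher in the teriparatide library under every alternative that gave one, by 1.64 to 2.94 percentage points, but the interval covered 0 without cells with at least 1% of UMIs from hemoglobin or stromal genes (shares 8.06% and 9.92%), in male cells (3.05% in the teriparatide library) and in female cells (0.521% and 2.55%, from 1 and 4 members). Against granule-high neutrophils, calls on UMIs outside the rule genes were 463 higher and 1157 lower of 4792 genes. They were 286 and 152 of 1308 in cells thinned to 2700 UMIs and 184 and 179 of 968 in female cells. In male cells 317 of 3077 were lower. Between the libraries 41 of 675 genes were higher without members with monocyte or hemoglobin RNA. Without members with UMIs of both sexes 67 of 738 were higher. Both alternatives were added after seeing the data. In thinned cells 47 were higher and 35 lower of 378 genes, and in female cells 5 and 13 of 80. At 20 or more UMIs per gene 100 of 2036 were lower, and at 100 or more 36 of 477. Of the gene ratios under alternatives, 2936 stayed on their side of the call, 73 gained and 94 lost it, and 14 called ones changed sign. Counting ratios that were not called, 139 of 3117 changed sign, 38 of them in female cells, where Il1b was at 1.17 and Slpi at 2.22 between the libraries. Among called genes in female cells the teriparatide ratio was -0.90 for Cdkn1a and for Cox6c, 0.46 for Cebpb, 0.018 for Gadd45a, 1.32 for Ier3, -3.48 for Ifitm1 and -4.95 for Wfdc17. There the ratio to granule-high cells was -0.97 for Apoe, -1.57 for Hbb-bs, -0.37 for Hspa1b and 0.43 for Prtn3. With S100a8 and S100a9 at 150 or more, it was 1.07 for Elane and 0.20 for Prtn3, and without monocyte or hemoglobin RNA it was -1.23 for Hspa1b. The causes were not tested. The 10 vehicle members with 41547 UMIs limit the precision of every ratio between the libraries.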

Other observations

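Iron storage and granule matrix transcripts were among the 20 most abundant in the members. Fth1, the ferritin heavy chain, was at 16608 CPM (15392–17894) among vehicle and 8589 CPM (8285–8901) among teriparatide members, against 2244 and 1804 CPM in granule-high neutrophils. Between the libraries it had a log2 ratio of -0.95 (-1.07 to -0.83). Ftl1, the ferritin light chain, was at 4838 and 4146 CPM, with a ratio of -0.22. Srgn, the proteoglycan serglycin that packs granule proteins, was at 9146 and 4992 CPM, with a ratio of -0.87 (-1.03 to -0.71). Malat1, a nuclear RNA, was at 13839.7 and 14937 CPM and had a ratio of 0.11 (-0.01 to 0.24). Without the 6 teriparatide members with monocyte or hemoglobin RNA the ratios of Fth1, Ftl1, Srgn and Malat1 were -0.74, -0.21, -0.69 and 0.07.

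Mitochondrial UMIs of 55.8% of vehicle barcodes and 40.2% of teriparatide barcodes exceeded the limit of 10%. With a limit of 20% the members made up 1.44% and 4.38% of kept cells.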
